A study of Homo sapiens with 2 samples.

Results

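The integrin subunit genes ITGA2, ITGA3, ITGA5, ITGA6, ITGAV, ITGB1, ITGB3, ITGB4 and ITGB5 and the hyaluronan receptor gene CD44 were examined for peaks of RUNX2, a Runt-domain transcription factor of bone formation, and of MTA1, which belongs to NuRD, a complex that remodels and deacetylates chromatin. They are 10 of the 20037 protein-coding genes of the RefSeq annotation of GRCh38.p14. A peak was taken as theirs when its centre lay inside the gene or within 50 kb of it. The rule names the genes and uses no measured value, although the list was drawn up with earlier results of these data known. By this rule the members held 101 of the 61700 RUNX2 peaks and 86 of the 42683 MTA1 peaks on chromosomes 1 to 22, X and Y, and no peak was counted for more than 1 member.

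Both libraries came from untreated MDA-MB-231 cells, a triple-negative breast cancer cell line that was grown in DMEM with 10% fetal bovine serum, and the study asked where RUNX2 and its partner complex sit in cells that spread to bone. Each antibody had 1 CUT&Tag library, an assay in which an antibody guides a transposase to chromatin and the cut fragments near the protein are sequenced. No value below therefore has a replicate, no control library was analysed here, and the depth of the libraries is unknown. For each antibody the supplier in the labels is not the one in the study's methods, and the labels describe adaptor ligation and size selection, which CUT&Tag does not normally use. The deposited score of a peak has no stated scale, so each peak was ranked within its own list, where percentile 100 is the highest score. All intervals are exact 95% binomial intervals, or for a median the matching order statistics, and cover counting error over peaks only, with peaks treated as independent although several belong to 1 gene. The submitters' notes name hg19, but the peaks fit GRCh38 starts: 47.7% of annotated starts had a RUNX2 peak within 1 kb and 49.3% an MTA1 peak, against 7.02% to 7.87% and 5.26% to 6.11% after the peaks were moved by 10 to 200 kb.

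Integrins are transmembrane receptors made of 1 alpha and 1 beta subunit that hold cells to the extracellular matrix and pass signals in both directions across the membrane. The alpha subunit largely sets the ligand, and the beta subunit carries the cytoplasmic tail that talin and kindlin bind. CD44 binds hyaluronan and other matrix components and is widely used as a marker of stem-like breast cancer cells. Tumour cells that settle in bone meet collagen there as well as osteopontin, fibronectin and vitronectin, which alpha v integrins recognise.

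The 250 bases before the gene start are shown for 5 members because they span what the libraries held at the starts: peaks of both over the whole stretch (ITGB1), peaks of both over part of it (CD44 and ITGAV), a weak RUNX2 peak alone (ITGA2) and no peak (ITGA5). The sequences are RefSeq GRCh38.p14, 5′ to 3′ in the direction of transcription, and capitals mark the letters of 4 motifs, TGTGGT (RUNX core), GGAATG (TEAD), GGGCGG (SP/KLF box) and CCGGAA (ETS), on either strand.
ITGB1 (chr10:32958231-32958480, minus strand): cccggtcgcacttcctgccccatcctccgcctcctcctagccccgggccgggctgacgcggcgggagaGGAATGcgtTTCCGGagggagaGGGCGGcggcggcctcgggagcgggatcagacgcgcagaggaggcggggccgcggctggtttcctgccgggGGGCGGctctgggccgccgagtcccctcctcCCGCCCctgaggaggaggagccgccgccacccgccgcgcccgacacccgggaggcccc
CD44 (chr11:35138921-35139170, plus strand): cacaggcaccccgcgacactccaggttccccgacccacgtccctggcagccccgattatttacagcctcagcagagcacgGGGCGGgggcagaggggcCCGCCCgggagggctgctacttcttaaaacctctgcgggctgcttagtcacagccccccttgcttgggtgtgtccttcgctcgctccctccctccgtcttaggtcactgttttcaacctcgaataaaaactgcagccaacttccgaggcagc
ITGAV (chr2:186589806-186590055, plus strand): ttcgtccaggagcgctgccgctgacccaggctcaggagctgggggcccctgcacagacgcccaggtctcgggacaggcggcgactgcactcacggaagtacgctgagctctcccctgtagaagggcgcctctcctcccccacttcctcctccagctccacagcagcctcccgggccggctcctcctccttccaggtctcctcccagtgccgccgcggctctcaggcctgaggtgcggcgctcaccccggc
ITGA2 (chr5:52989102-52989351, plus strand): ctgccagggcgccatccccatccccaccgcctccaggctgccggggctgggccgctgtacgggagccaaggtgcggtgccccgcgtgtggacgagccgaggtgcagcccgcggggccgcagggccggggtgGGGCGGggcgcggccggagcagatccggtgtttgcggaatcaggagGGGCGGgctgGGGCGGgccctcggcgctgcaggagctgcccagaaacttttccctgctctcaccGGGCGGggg
ITGA5 (chr12:54419267-54419516, minus strand): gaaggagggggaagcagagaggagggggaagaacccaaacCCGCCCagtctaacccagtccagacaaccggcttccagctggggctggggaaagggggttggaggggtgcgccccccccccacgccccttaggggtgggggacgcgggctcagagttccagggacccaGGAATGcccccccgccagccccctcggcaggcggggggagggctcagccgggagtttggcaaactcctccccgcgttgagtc

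The letters TGANTCA (AP-1) were also searched and were found at none of the members' starts, against 6.57% of all 35116 promoters of the table. Of the 12 annotated starts of 7 members, 7 held the SP/KLF box, against 42.6% of all promoters, and 3 held the ETS letters, against 14.5%. The TEAD letters stood in the promoters of ITGA5 and ITGB1 printed above and in no other start of a member, against 11.9% of all promoters. The RUNX core was found at 1 start, the inner start of ITGA6, against 11% of all promoters, and those letters lay outside the RUNX2 peak there. No match overlapped another, and a match of letters is a description, not a site. ITGA3, ITGB3 and ITGB4 had no entry in the table of starts.

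In the printed stretches, the RUNX2 and MTA1 peaks each covered all 250 bases at ITGB1, with the TEAD letters 182 bases, the ETS letters 173 bases and the SP/KLF boxes 160, 89 and 58 bases before the start. At CD44 the RUNX2 peak covered 148 bases and the MTA1 peak 226 bases, and both SP/KLF boxes, 170 and 152 bases before the start, lay in both peaks. At ITGAV the RUNX2 peak covered 99 bases and the MTA1 peak 243 bases, and none of the letters occurred. At ITGA2 the RUNX2 peak covered 38 bases at the far end, and the 4 SP/KLF boxes lay outside it. The letters searched did not separate the starts with peaks from the start without: ITGA5, with no peak over its 250 bases, held the TEAD letters and an SP/KLF box.

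Every member had peaks of both libraries in its window, the gene and the 50 kb on either side. A RUNX2 peak lay in the window of 10 of 10 members, beside 90.8% of all protein-coding genes, and an MTA1 peak in 10 of 10, beside 86.5%. Overlapping RUNX2 and MTA1 peaks, sharing at least 1 bp, were found in 10 of 10 windows, beside 80.1% of all genes. These shares are near the background, so the presence of a peak somewhere in a window says little about the members. The windows of the members were also longer, with a median of 170 kb against 124 kb over all genes.

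Peaks inside the genes themselves were counted next. RUNX2 peaks lay inside 8 of 10 members, beside 54.9% of all genes, the exceptions being ITGAV and ITGB4. MTA1 peaks lay inside 7 of 10, beside 47.9%, the exceptions being ITGAV, ITGB1 and ITGB4. Of the 101 RUNX2 peaks 44 were inside the genes, and of the 86 MTA1 peaks 34 were. A longer gene has more room for a peak inside, and the members were longer than most genes. With equal flanks, their windows had a median of 170 kb against 124 kb over all genes. The shares inside the genes were not adjusted for length.

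Within 1 kb of a gene start, a RUNX2 peak was found at 8 of 10 members, beside 49.8% of all genes, and an MTA1 peak at 5 of 10, beside 51.2%. Peaks of both stood at 5 of 10, beside 44.3%: ITGA3, ITGAV, ITGB1, ITGB5 and CD44. The RUNX2 count rested in part on low scores: it was 4 of 10 with scores no lower than the median (37.3% of all genes), 1 of 10 among the 10000 highest (14.4%), and 5 of 10 without peaks of the narrowest width (45%), where MTA1 also stood at 5 of 10 (47.3%). RUNX2 peaks without an MTA1 peak stood at ITGA2, ITGA6 and ITGB3, and ITGA5 and ITGB4 had neither. For ITGA3, ITGB3 and ITGB4, whose start side was not known, either end of the gene was used. Among the 7 members with annotated starts, RUNX2 peaks stood at 6 and MTA1 peaks at 4, beside 52.1% and 53.9% of the 15843 genes with annotated starts.

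**Figure D1:**
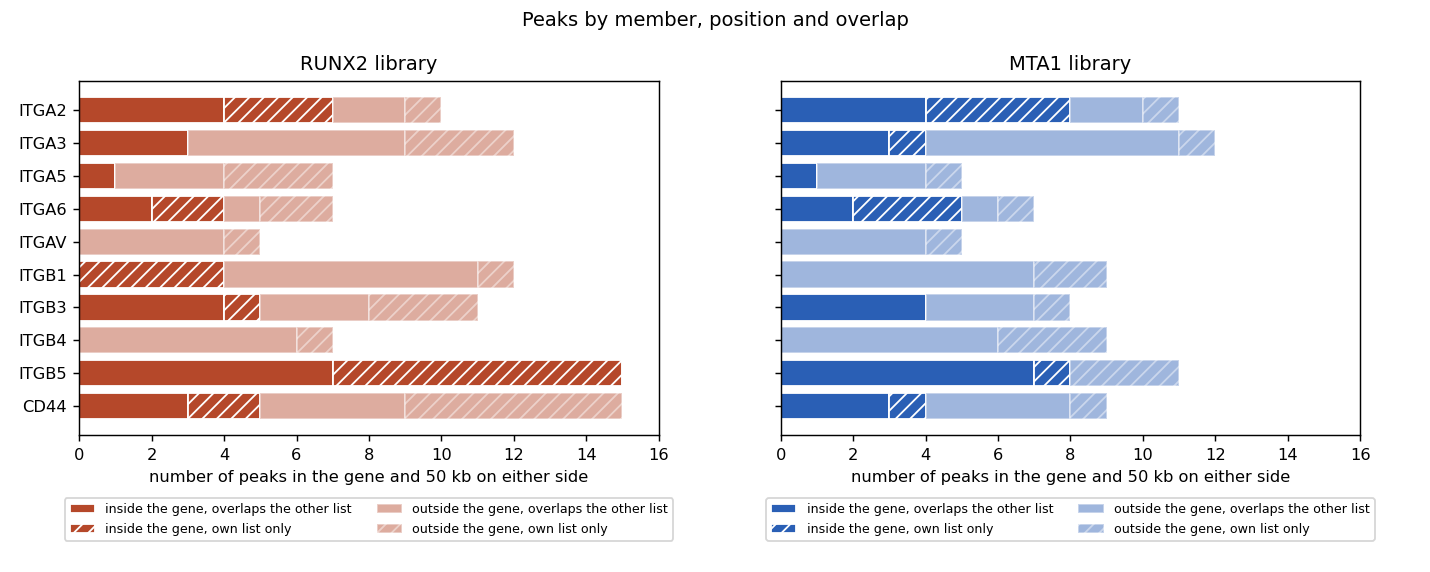
Number of RUNX2 (left) and MTA1 (right) peaks in each member and the 50 kb on either side; full colour is inside the gene, pale is outside, and hatching marks peaks with no overlap in the other list. The windows of ITGB5 and CD44 hold 15 RUNX2 peaks each, of which 15 and 5 lie inside the gene. ITGAV and ITGB4 have no peak inside the gene in either library.

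Among the members' alpha subunits, ITGA2, which pairs with ITGB1 as a collagen receptor, had the highest MTA1 percentile, ahead of ITGA3 at 98.6. The window of ITGA1, an integrin gene that is not a member, also reached MTA1 percentile 99.4. The gene spans 105 kb on chromosome 5 and its window held 10 RUNX2 peaks, 7 of them inside, and 11 MTA1 peaks, 8 of them inside. The MTA1 peak at chr5:53004944-53005250, 15.7 kb inside the gene, had a score of 52.0 and stood at percentile 99.4. The RUNX2 peak that overlapped it, chr5:53004965-53005276, had a score of 24.3 and stood at percentile 90.8, the highest RUNX2 peak of the window. The leading site of ITGA2 was thus shared and ranked higher in the MTA1 list.

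Further into ITGA2, the other leading sites were also shared, at 30.2, 42.6 and 80.5 kb from the start. Their RUNX2 percentiles were 82.0, 65.5 and 69.2, and their MTA1 percentiles 63.5, 78.8 and 88.7. At the start itself the RUNX2 peak, chr5:52989041-52989139, was 99 bp wide, the narrowest width of its list, with a score of 4.33 and percentile 14.5. Its centre lay in the antisense gene ITGA2-AS1, and the MTA1 peak nearest to the start lay 4.69 kb inside at percentile 9.8. ITGA2 therefore had strong shared sites within the gene and little at its start.

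ITGA3, the laminin-binding partner of ITGB1, had the densest windows of the members, with 12 peaks in each library, or 8.93 per 100 kb. That density stood at percentile 91.7 of all protein-coding genes for RUNX2 and 95.2 for MTA1. The gene spans 34.4 kb on chromosome 17. Its leading site lay inside the gene: RUNX2 chr17:50062326-50062817 with a score of 60 (percentile 99.3) and MTA1 chr17:50062375-50062819 with 43.5 (percentile 98.6).

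The second site of ITGA3 lay 28.0 kb outside its lower-coordinate end, at RUNX2 chr17:50027457-50028734, with percentiles of 93.4 for RUNX2 and 92.8 for MTA1. The third lay 4.8 kb outside the same end, within the non-coding gene PICART1, with percentiles of 91.2 and 86.7. At that end of the gene, RUNX2 chr17:50055609-50056135 stood at percentile 81.2 and overlapped 2 MTA1 peaks, both at percentile 38.8. These peaks also lay at the start of PICART1. The RUNX2 centre was 0.13 kb from that start and 0.24 kb from the ITGA3 end. The MTA1 centres were 0.08 and 0.18 kb from the PICART1 start, and 0.45 and 0.19 kb from the ITGA3 end. In all 9 overlapping pairs of ITGA3 the RUNX2 percentile was the higher, by a median of 8.4 points, and no RUNX2 peak of the window had the narrowest width.

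ITGA5, the alpha subunit of the fibronectin receptor, had 1 site inside its 24.0 kb on chromosome 12 and none at its start. The site lay 7.68 kb from the start, with RUNX2 at chr12:54411408-54411771 (score 20.8, percentile 87.8) and MTA1 at chr12:54411391-54411772 (score 25.9, percentile 93.1). It also lay within the span of the antisense gene GPR84-AS1. The other 6 RUNX2 peaks and 4 MTA1 peaks of the window lay downstream and were nearer to GPR84 or ZNF385A than to ITGA5. The next RUNX2 peaks by score were at percentiles 71.5, within GPR84, and 40.5, within ZNF385A. The next MTA1 peaks were at 64.9 and 64.2, both within GPR84.

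ITGA6 forms laminin receptors with ITGB1 or ITGB4, and its 79.1 kb on chromosome 2 held the leading RUNX2 peaks of its window. The highest, chr2:172449951-172450369, lay 22.8 kb from the start with a score of 32.8 and percentile 95, and its MTA1 partner was at percentile 54.5. The second, chr2:172442082-172442458, lay 14.9 kb from the start at percentile 92.7, and its MTA1 partner was at percentile 91.6, the highest MTA1 peak of the window. Another RUNX2 peak at 21.8 kb (percentile 76.4) had no MTA1 partner. The 2 leading sites thus carried near-equal RUNX2 ranks and unlike MTA1 ranks.

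At the start of ITGA6 the RUNX2 peak chr2:172427370-172427751 had a score of 5.27 and percentile 39.6 and no MTA1 peak overlapped it. It covered 216 of the 250 bases before the inner of the 2 annotated starts. The MTA1 peak nearest to that start lay 11.8 kb from the outer start at percentile 40. The second MTA1 peak of the window, at percentile 85.0, lay 0.15 kb from the start of the neighbouring gene PDK1.

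ITGAV encodes the alpha v subunit, which pairs with ITGB1, ITGB3 or ITGB5 to bind vitronectin, osteopontin and other RGD ligands. Its window held the fewest RUNX2 peaks of the members, 5, and 5 MTA1 peaks, and none of either lay within its 90.8 kb on chromosome 2. By number the window stood at percentile 48.4 of all protein-coding genes for RUNX2 and 61.6 for MTA1. By density it stood at 38.4 and 50.8. At the start, the MTA1 peak chr2:186589813-186590110 had a score of 17.9 and percentile 84.9, the highest MTA1 peak of the window. The RUNX2 peak there, chr2:186589892-186589990, was of the narrowest width with a score of 5.11 and percentile 28.0. This site thus ranked far higher in the MTA1 list, with a RUNX2 minus MTA1 difference of -56.8 points, the widest in that direction of the 60 pairs. It also lay at the start of another annotated gene, LOC124906105. The RUNX2 and MTA1 centres lay 0.04 and 0.07 kb from that start, and 0.12 and 0.09 kb from the ITGAV start. The peaks can therefore not be given to ITGAV alone.

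The highest RUNX2 peak of the ITGAV window, at percentile 57.4, lay 0.01 kb from the start of FAM171B, with an MTA1 partner at percentile 37.3. The other pairs lay upstream, at -14.6 kb (RUNX2 percentile 25.8, MTA1 63.2) and -45.7 kb (34.3 and 41.0). Another MTA1 peak, 1.53 kb from the FAM171B start at percentile 49.9, had no partner. In no other member did the highest RUNX2 peak fall below percentile 87.8.

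**Figure D2:**
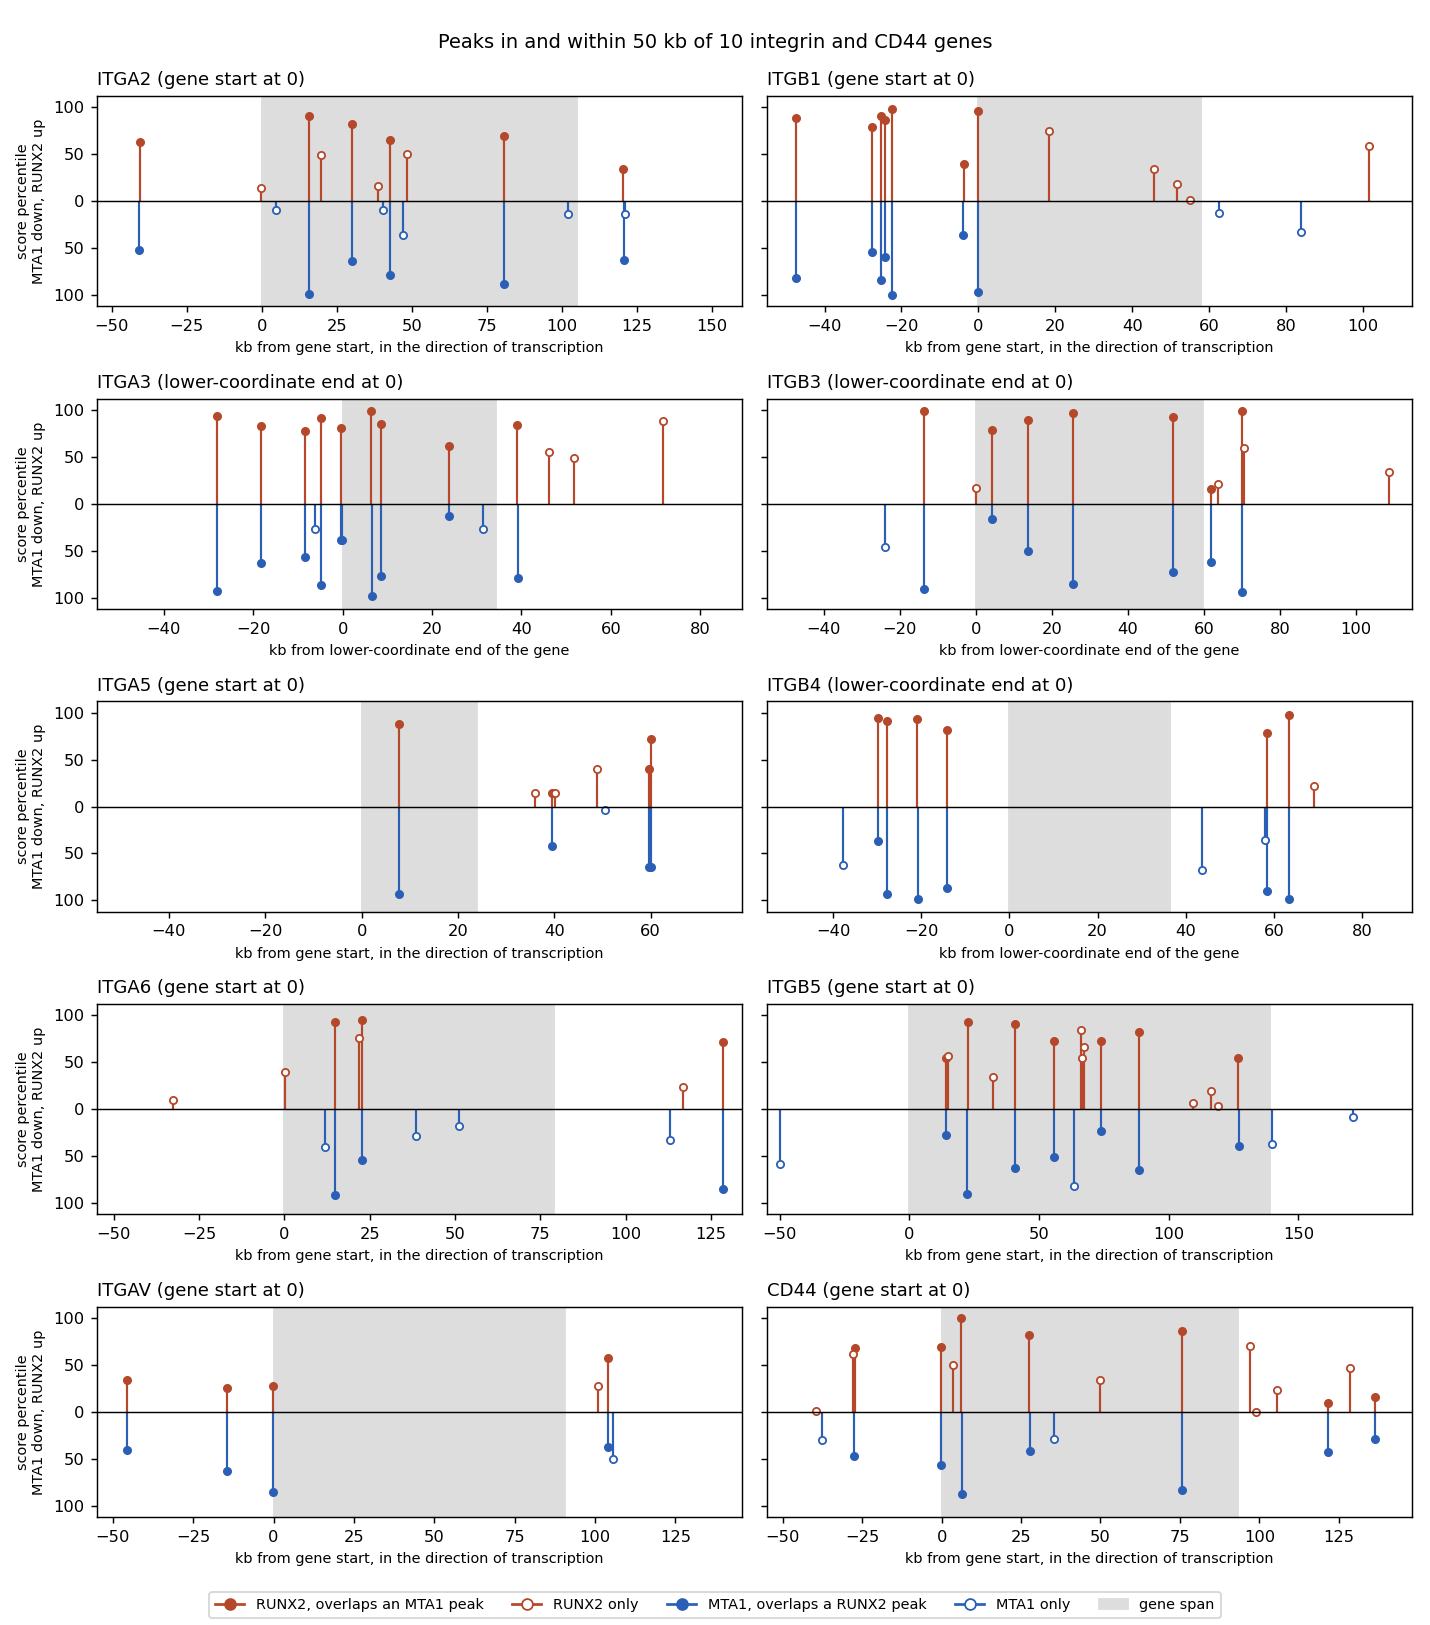
Every peak of the 10 windows, by distance in kb from the gene start (or from the lower-coordinate end of ITGA3, ITGB3 and ITGB4, whose start side was not known), with the RUNX2 percentile upwards and the MTA1 percentile downwards; filled points overlap a peak of the other list and grey marks the gene. ITGB1 shows its shared peaks at and upstream of the start, and ITGB5 shows all 15 RUNX2 peaks inside the gene.

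ITGB1, the beta subunit common to the collagen, laminin and fibronectin receptors above, had the highest-ranked start of the members. RUNX2 chr10:32958192-32958561 scored 34.0 (percentile 95.5) and MTA1 chr10:32958189-32958614 scored 34.7 (percentile 96.9). The RUNX2 peak was the only start peak of a member above percentile 90 in its list, and the same held for the MTA1 peak.

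The highest site of the ITGB1 window lay further upstream, at -22.5 kb. RUNX2 chr10:32980519-32980915 scored 45.0 (percentile 97.9) and MTA1 chr10:32980519-32980930 scored 58.4 (percentile 99.7), the highest MTA1 percentile of any member. Shared sites followed at -24.3 kb (RUNX2 86.6, MTA1 59.2), at -25.2 kb (90.8 and 84.5), at -27.7 kb (79.0 and 54.6) and at -47.4 kb (88.9 and 82.3). The RUNX2 centres of all sites from -24.3 kb outwards lay within the divergent transcript ITGB1-DT, as did the MTA1 centres except that at -24.3 kb. Each of these upstream RUNX2 peaks had the member as its nearest protein-coding gene.

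Within the 57.9 kb of ITGB1 the pattern was different. It held 4 RUNX2 peaks, at percentiles 74.2, 34.3, 17.8 and 1.0, of which the last 3 were of the narrowest width. No MTA1 peak lay inside the gene, and none of the 4 RUNX2 peaks had a partner. The ITGB1 signal shared by both libraries was thus at the start and upstream of it.

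ITGB3, the partner of ITGAV in the vitronectin and osteopontin receptor, held 4 shared sites within its 59.9 kb on chromosome 17. From the lower-coordinate end they lay at 4.22, 13.7, 25.5 and 51.8 kb. Their RUNX2 percentiles were 78.9, 88.9, 96.7 and 92.1, and their MTA1 percentiles 15.7, 50.4, 84.9 and 72.9. The strongest of them, RUNX2 chr17:47279141-47279596, scored 38.4 and its MTA1 partner 17.9. All 4 sites ranked higher in the RUNX2 list.

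Higher peaks of the ITGB3 window lay outside the gene. RUNX2 chr17:47323676-47324085 (score 53.7, percentile 98.9, MTA1 partner 94.2) lay 0.07 kb from the nearer end of EFCAB13, within the divergent transcript EFCAB13-DT. RUNX2 chr17:47240056-47240546 (score 52.1, percentile 98.8, MTA1 partner 90.8) was nearest to MYL4. The end of ITGB3 itself carried the narrow RUNX2 peak chr17:47253857-47253955 at percentile 16.9, with no MTA1 partner. The MTA1 peak nearest to an end of ITGB3 lay 1.97 kb away at percentile 62.0.

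ITGB4, the laminin-binding subunit of hemidesmosomes, held no peak of either library in its 36.4 kb on chromosome 17 or at its ends. Its window still held 7 RUNX2 and 9 MTA1 peaks, but none had ITGB4 as its nearest protein-coding gene. RUNX2 chr17:75784580-75785273 (score 45.7, percentile 98.0) and its MTA1 partner (46.7, percentile 99.0) lay 0.12 and 0.10 kb from the nearer end of UNK. RUNX2 peaks at percentiles 94.2 and 93.0, at -29.9 and -20.9 kb from the lower-coordinate end, lay in SAP30BP, with MTA1 partners at 36.2 and 98.5. The third MTA1 peak, chr17:75693552-75693968 (score 25.9, percentile 93.1), also lay in SAP30BP, with a RUNX2 partner at 90.8. The RUNX2 peak nearest to ITGB4 lay 14.2 kb from its lower-coordinate end at percentile 81.2, and the nearest MTA1 peak 7.33 kb from its upper end at percentile 67.6. The ranks of this window, with medians of 90.8 for RUNX2 and 86.3 for MTA1, were the highest of the members and belong to sites in or near neighbouring genes. The pair at RUNX2 chr17:75779740-75780078 (percentile 78.8, MTA1 partner 89.9), for instance, lay outside any annotated gene by its centres. Those centres were 0.13 and 0.10 kb from the start of H3-3B.

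ITGB5 forms the other vitronectin receptor with ITGAV, and it had 15 RUNX2 peaks, all inside its 139 kb on chromosome 3. The number stood at percentile 96.5 of all protein-coding genes, and its density, 6.26 per 100 kb, at percentile 76.9. MTA1 peaks numbered 11, of which 8 were inside. The leading site was shared, 22.5 kb from the outermost start, at RUNX2 chr3:124878646-124879253 (score 28.0, percentile 93.0) and MTA1 chr3:124878749-124879422 (score 21.8, percentile 89.8).

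Next in the RUNX2 list came a shared peak of ITGB5 at 40.6 kb (RUNX2 90.7, MTA1 62.7) and an unshared peak at 66.2 kb (percentile 84.6). The second MTA1 peak, at 63.5 kb and percentile 81.9, had no RUNX2 partner, and the third, at 88.4 kb and percentile 65.1, overlapped a RUNX2 peak at 82.1. At an inner start, 14.0 kb from the outermost one, RUNX2 chr3:124887305-124887534 (score 6.95, percentile 54.1) overlapped MTA1 chr3:124887237-124887529 (score 5.72, percentile 27.6), and the outermost start had no peak within 1 kb. A second RUNX2 peak near the inner start, at percentile 56.9, had no partner. In all 7 overlapping pairs of ITGB5 the RUNX2 percentile was higher, by a median of 21.9 points.

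The CD44 window held 15 RUNX2 peaks, at percentile 96.5 of all protein-coding genes by number and 86.5 by density, and 9 MTA1 peaks. Unlike at ITGB5, only 5 of the 15 lay inside the gene and 10 outside, and 11 had CD44 as their nearest protein-coding gene. Of the 15, 7 overlapped an MTA1 peak and 6 had the narrowest width, and their median percentile was 50.1. Of the 9 MTA1 peaks 4 lay inside. Its leading RUNX2 peak, chr11:35145253-35145584, lay 6.25 kb inside the gene and scored 65.4, percentile 99.6. It was the highest RUNX2 percentile of the 101 peaks of the members. The MTA1 partner, chr11:35145308-35145553, scored 19.9 and stood at percentile 87.6, the highest MTA1 peak of the window.

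The second site of CD44, 75.8 kb from the start at chr11:35214794-35215171, had near-equal percentiles of 86.0 for RUNX2 and 83.6 for MTA1. Its centre also lay in CD44-AS1. The third RUNX2 peak, at 27.6 kb and percentile 81.8, had a partner at percentile 41.5. At the start, RUNX2 chr11:35138988-35139135 scored 10.1 (percentile 68.8) and MTA1 chr11:35138694-35139146 scored 8.53 (percentile 57.0), both in the upper part of their lists but below the site within the gene.

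Over all members, the RUNX2 peaks had a median percentile of 65.5 (95% interval 54.3 to 74.2, n = 101) and the MTA1 peaks a median of 57 (42.9 to 63.5, n = 86), where 50 is the median of a list. Of the RUNX2 peaks 20 (19.8%) and of the MTA1 peaks 12 (14%) lay above percentile 90. The interval of the MTA1 median included 50, and that of the RUNX2 median did not. In width the members' peaks had medians of 185 bp for RUNX2 and 214 bp for MTA1, against 151 and 185 bp over the lists. Narrowest-width peaks were 23.8% of the members' RUNX2 peaks and 31.7% of the list, and 23.3% and 26% for MTA1.

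Of the members' RUNX2 peaks 60 of 101 (59.4%, 49.2% to 69.1%) overlapped an MTA1 peak, against 45.4% of the whole RUNX2 list. Of their MTA1 peaks 61 of 86 (70.9%, 60.1% to 80.2%) overlapped a RUNX2 peak, against 65.5% of the whole MTA1 list. The RUNX2 interval lay above the share of its list, and the MTA1 interval included it. The RUNX2 interval also included the share of its list in 5 of 10 alternatives: inside the genes (38.8% to 69.6%, list 45.4%), with 10 kb flanks (44.1% to 70.9%, list 45.4%), at or above the median score (49.5% to 74.3%, list 52.6%), among the 10000 highest scores (51.3% to 86.8%, list 52.4%) and with 50% of each peak shared (34.7% to 54.8%, list 34.9%). Inside the genes the RUNX2 share was 54.5% (24 of 44) and outside 63.2% (36 of 57), and for MTA1 it was 70.6% and 71.2%, with wide overlapping intervals.

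Overlap was more frequent at higher ranks, so the shares are also given by rank. Of the members' RUNX2 peaks, 4 of 21 overlapped an MTA1 peak at or below percentile 25 (19%, against 13.9% of the list), and 20 of 20 did above percentile 90 (100%, 83.2% to 100%, against 90.6%). In the steps between, the members' shares were 37.5%, 54.2% and 85%, against 27%, 57.2% and 78.6%. In each of the 5 steps the interval of the members included the share of the list, but the steps held only 16 to 24 peaks and the intervals were wide. The members' share was above that of the list in every step except 50 to 75. A difference at equal rank was not tested. For MTA1 the members' shares from the lowest step to the highest were 27.3%, 50%, 85.7%, 93.8% and 100%, against 32.8%, 51.8%, 80.1%, 95% and 99.1%. Each interval again included the value of the list, with 11 to 26 peaks per step.

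**Figure D3:**
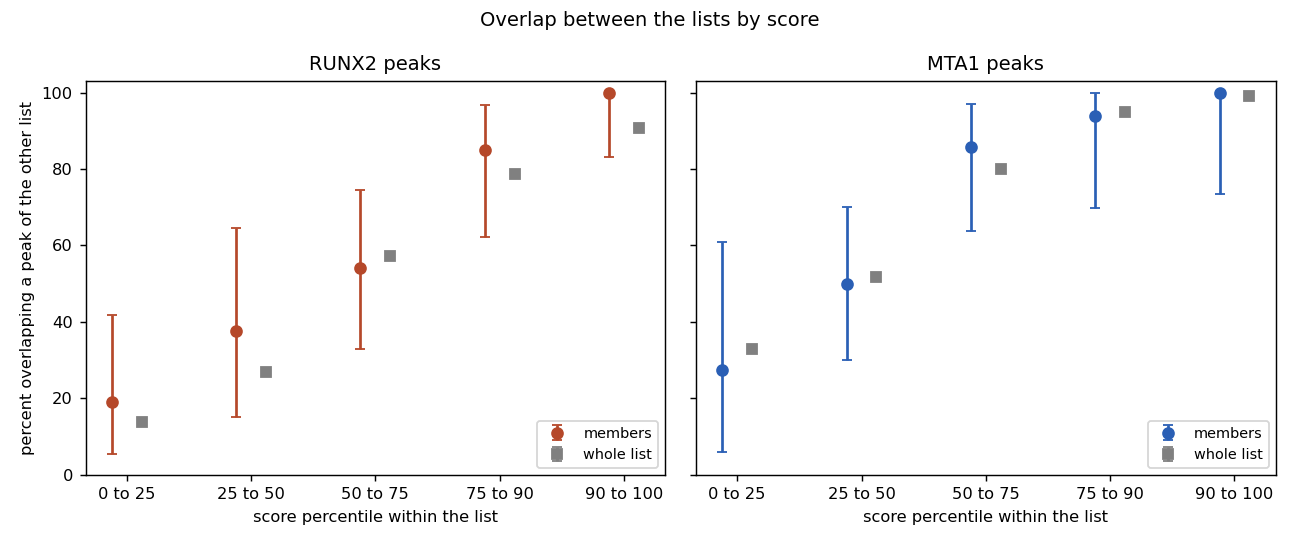
Percent of peaks that overlap a peak of the other list, by score percentile within the list, for the members (circles, bars are exact 95% binomial intervals) and the whole list (squares). The members rise from 19% to 100% for RUNX2 and from 27.3% to 100% for MTA1, and every interval covers the whole-list value. The intervals are wide, with 11 to 26 member peaks per step.

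In the 60 pairs, each a RUNX2 peak with its highest-ranked MTA1 partner, the RUNX2 percentile was higher in 39 (65%) and the median difference was 5.8 points, against 57.1% and 3.36 points over all 27997 pairs. The members split. RUNX2 ranked higher in all pairs of ITGA3 (9 of 9) and ITGB5 (7 of 7), in 6 of 7 of ITGB3, in 2 of 3 of ITGA6, and in 5 of 7 each of ITGB1 and CD44. MTA1 ranked higher in most pairs of ITGA5 and ITGAV (3 of 4 each), of ITGA2 (4 of 6) and of ITGB4 (5 of 6). Counts this small, in pairs that share a gene and 2 unreplicated libraries, are a description only.

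**Figure D4:**
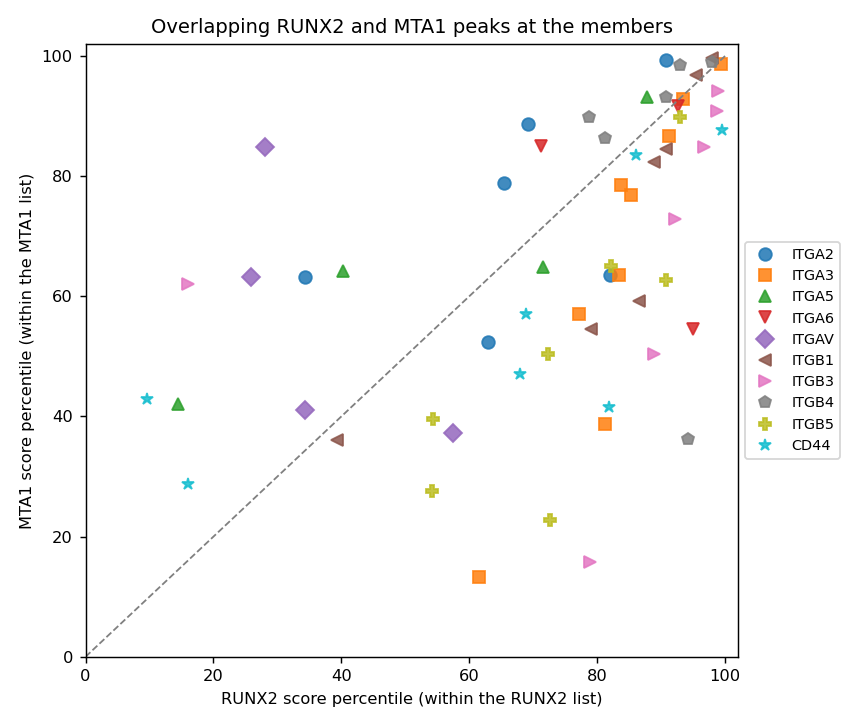
Score percentile of each overlapping pair at the members, with RUNX2 on the x axis and MTA1 on the y axis; the dashed line marks equal percentiles. The 60 pairs lie mostly to the right of the line, with 39 ranked higher for RUNX2, and the ITGAV start stands furthest above it at 28.0 and 84.9.

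Other adhesion genes were set beside the members. The members had a median of 5.95 RUNX2 and 4.83 MTA1 peaks per 100 kb of window, against 3.54 and 2.57 over all protein-coding genes. A window also takes in neighbouring genes. A member was the nearest protein-coding gene for 68 of the 101 RUNX2 peaks and 56 of the 86 MTA1 peaks. The 17 other integrin genes had medians of 3.99 and 3.49. The 9 of these that are leukocyte or platelet integrins had 3.41 and 5.11, and the remaining 8 had 4.02 and 3.14. The members' medians were thus nearer to those of other adhesion groups than to the rest of their own family for RUNX2. The windows of the groups can share peaks with those of the members. The RUNX2 peak chr5:52948673-52948832 of the ITGA2 window, for instance, lay inside ITGA1, which is among the other integrins.

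The 18 cytoplasmic partners, such as talins and kinases that bind or signal from the integrin tail, had medians of 5.87 and 4.36 per 100 kb. The 10 membrane partners and hyaluronan genes had 5.75 and 4.17, and the 12 extracellular ligands 5.3 and 3.16. By number of peaks in the window, PTK2 (36, 21 inside), which encodes focal adhesion kinase, TNS3 (26, 16 inside) and TLN2 (23, 21 inside) led the cytoplasmic partners for RUNX2. For MTA1 the leading genes were PTK2 (22, 10 inside), ACTN4 (19, 15 inside) and TLN2 (17, 16 inside). The windows of these genes differ in length, and the groups overlapped widely gene by gene.

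Among the ligands, the windows of LAMA3 and LAMA5 held 16 and 15 RUNX2 peaks, of which 13 and 3 lay inside the gene. Those of LAMA5, COL1A1 and TNC held 14, 13 and 7 MTA1 peaks, of which 2, 3 and 0 lay inside. Among the membrane and hyaluronan genes, the windows of CAV1 (15, 2 inside the gene), CD9 (13, 2 inside) and RDX (12, 6 inside) led for RUNX2. For MTA1 those of CD151 (11, 1 inside), CD9 (10, 2 inside) and MSN (10, all inside) led. Among the other integrins, the ITGB2 window led both lists, with 22 RUNX2 peaks (7 inside) and 14 MTA1 peaks (5 inside). The windows of ITGAE (15, 6 inside), ITGA9 (12, 9 inside), ITGA10 (12, 2 inside) and ITGA11 (12, 11 inside) followed for RUNX2. For MTA1 those of ITGA10 (10, 1 inside) and ITGAL (10, 2 inside) followed. At the starts, RUNX2 peaks were found at 4 of the 17 other integrins, MTA1 peaks at 4 and peaks of both at 3, against 8, 5 and 5 of the 10 members. Over all genes the shares were 49.8%, 51.2% and 44.3%. In the other groups, RUNX2, MTA1 and both stood at 11, 13 and 9 of the 18 cytoplasmic partners, at 6, 8 and 6 of the 10 membrane and hyaluronan genes, and at 5, 3 and 3 of the 12 ligands. The membrane and hyaluronan genes and the cytoplasmic partners thus had MTA1 start peaks more often than the members did in these counts, which were not tested. Starts were annotated for 7 of the 10 members and 11 of the 17 other integrins, and either gene end served for the rest. The members' RUNX2 start count rested in part on low scores, as given above.

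**Figure D5:**
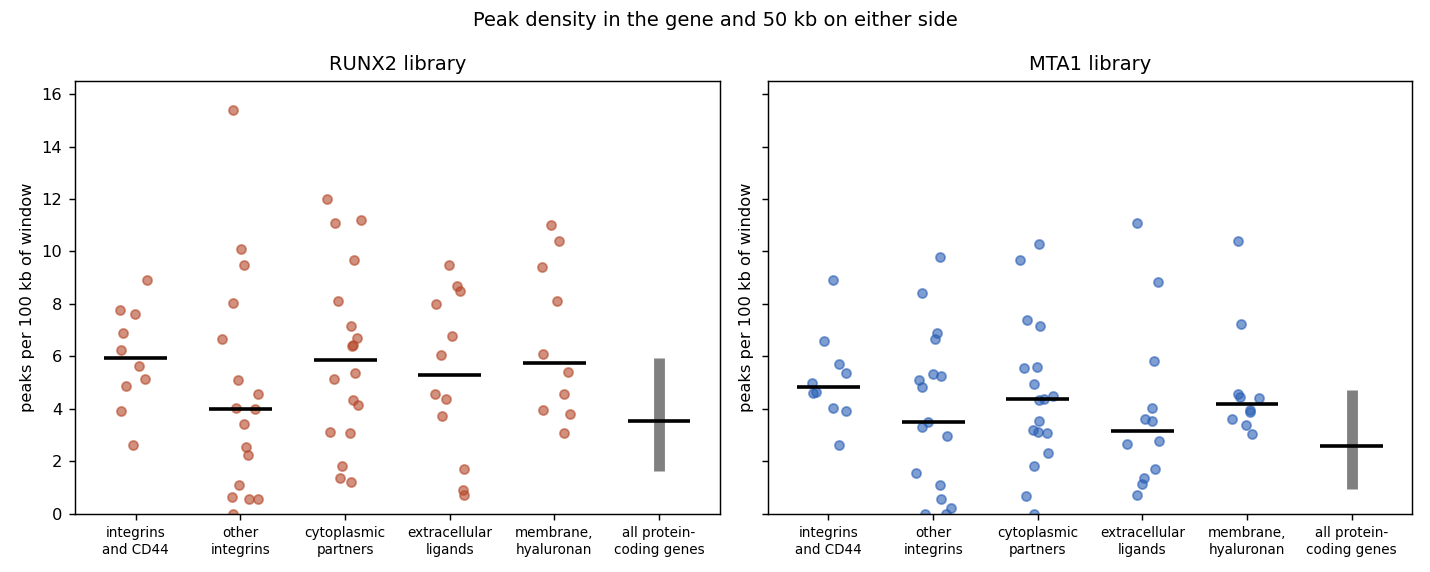
Peaks per 100 kb of window for each gene of 5 groups (points), with the median of the group (black line); for all protein-coding genes the grey bar spans the quartiles. The members' medians of 5.95 and 4.83 lie above the medians of all genes, 3.54 and 2.57, with much spread within each group.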

How the data were processed

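CUT&Tag libraries for RUNX2 and MTA1, 1 each, were made by the authors from MDA-MB-231 cells. The authors deposited for each library a list of called peaks with positions and a score, whose scale is not stated. The submitters' processing notes name CASAVA 1.4, Bowtie 0.12.8, MACS, MACS2 and hg19. Because annotated starts matched the peaks unmoved, as given above, GRCh38.p14 was used for genes and promoters, and positions are 1-based. Exons and introns were not assigned.

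Peaks were assigned by their centre to a gene or its 50 kb flanks. They overlapped when at least 1 bp was shared, and a peak at a start came within 1 kb of it. Percentiles used mean ranks for ties. Peaks on mitochondrial DNA were left out. Motif letters were searched in the 250 bases before each of 35116 starts. No test was run, since each antibody had 1 library, and genes and peaks are not replicates. Depth is unknown, and a missing peak can be a weak one, because each list has its own threshold.

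All 10 members are named, with the 3 peaks of highest score per library in each window and the peak nearest to the start, and the 3 leading genes of each comparison group. The peaks of 1 gene of these groups are not reported by name here. The members and gene groups were chosen with earlier results of these data known. Steps were tested on simulated data. Alternatives changed the window, the overlap rule, the score limit, the width limit, the merging of peaks within 500 bp and the start window. Scripts ran in Python 3.11.15 with pandas 2.3.3, numpy 2.4.6 and scipy 1.17.1, and figures were drawn with matplotlib 3.10.9.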

Additional observations from a re-analysis of the deposited data

How the results depend on the processing

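Of 58 alternatives, 40 moved a value by less than its counting interval or by less than 1.5 times, and both median percentiles were among these throughout. The 101 RUNX2 peaks became 44 inside the genes, 57 with 10 kb flanks, 64 at or above the median score and 28 among the 10000 highest. The 86 MTA1 peaks became 34, 48, 49 and 28 in the same settings, and 56 when the member had to be the nearest protein-coding gene. RUNX2 peaks at starts fell from 8 members to 4 at or above the median score (37.3% of all genes), 1 among the 10000 highest (14.4%) and 5 without narrowest-width peaks (45%). MTA1 starts went from 5 members to 3 (39%) and 2 (24.8%) under the score limits. The RUNX2 share rose to 71.4% among the 10000 highest (list 52.4%) and dropped to 44.6% when 50% or more of each peak had to be shared (list 34.9%). The MTA1 share was 81.6% at or above the median score (list 75.8%) and 52.3% with the 50% overlap (list 50.5%). The start counts above thus rest in part on lower-scoring peaks. The interval of the RUNX2 share included the share of its list in 5 of its 10 alternatives. No paired analysis was possible because each antibody had 1 library and no result comes from a test.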
